A study of Mus musculus with 12 samples.

Results

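Ms4a4a, Ms4a4b, Ms4a4c, Ms4a6b, Ms4a6c, Ms4a6d and Ms4a7 are 7 mouse genes of the Ms4a family of membrane proteins, taken by name from the 41325 genes listed in each liver library. The rule lists them by name, with no threshold on a measured value, and leaves out other Ms4a rows such as Ms4a1, Ms4a4d and Ms4a14. The members were chosen with earlier results of these data known, so counts of members called are descriptions and not a test of the family. The study sequenced liver RNA of C57BL/6J wild-type mice in 3 groups of 4 libraries. Control mice carry the disease state Control, with no diet named, and received vehicle. NASH vehicle mice had nonalcoholic steatohepatitis (NASH) induced by a diet that the labels call CDAHFD, known in the field as a choline-deficient, amino acid-defined, high-fat diet, and received vehicle. CDDO-Me mice had the same NASH diet and received CDDO-Me (bardoxolone methyl, a triterpenoid known as an activator of the transcription factor NRF2) at 10 mg/kg by mouth for 8 weeks. The sources used here do not give age, sex or whether animals shared a cage or litter, so p-values measure only the spread between these libraries. There was no group of control mice on CDDO-Me.

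Ms4a proteins cross the membrane several times and act mostly as parts of receptor complexes at the surface or in endosomes. The best known relatives are Ms4a1 (CD20) of B cells and Ms4a2, the beta chain of the high-affinity IgE receptor of mast cells. Most of the genes examined here are known from myeloid cells, and Ms4a4b is best known from T cells. In bulk liver RNA, fewer cells of a type and less RNA per cell cannot be told apart.

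The 7 genes lie on chromosome 19 (GRCm38) within 283.8 kb, from 11321039 to 11604849. Ms4a7 (11321039 to 11336146) and Ms4a6d (11586604 to 11604849) are on the minus strand and bound the stretch. Between them on the plus strand lie Ms4a4a (11375523 to 11392790), Ms4a4c (11404770 to 11427246), Ms4a4b (11443553 to 11463549), Ms4a6c (11469366 to 11482192) and Ms4a6b (11516512 to 11531256). All 21 rows of the family listed span 678.6 kb, and 6 of them had no read in any library.

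RefSeq promoters (GRCm38.p6) were found for 6 of the 7 genes, all but Ms4a6d. The 250 bases before the start are shown for Ms4a4b and Ms4a4c because these neighbours had the most alike windows of the 15 pairs compared. They matched at 185 of 269 aligned columns (68.8%), and their longest identical run, in capitals, held 20 bases and began 41 bases before the start of Ms4a4b and 38 before that of Ms4a4c. The Ms4a4c start used by RefSeq lies 2891 bases inside the deposited gene, and that of Ms4a4b lies 5 bases inside it. Sequences read 5′ to 3′ on the gene's strand.
Ms4a4b, chr19:11443308-11443557 (+ strand): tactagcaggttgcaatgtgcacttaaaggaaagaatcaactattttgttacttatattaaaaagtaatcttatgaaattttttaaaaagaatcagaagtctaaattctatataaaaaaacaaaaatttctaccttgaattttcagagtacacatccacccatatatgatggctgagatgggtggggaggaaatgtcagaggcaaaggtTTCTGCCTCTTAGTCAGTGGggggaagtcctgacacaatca
Ms4a4c, chr19:11407411-11407660 (+ strand): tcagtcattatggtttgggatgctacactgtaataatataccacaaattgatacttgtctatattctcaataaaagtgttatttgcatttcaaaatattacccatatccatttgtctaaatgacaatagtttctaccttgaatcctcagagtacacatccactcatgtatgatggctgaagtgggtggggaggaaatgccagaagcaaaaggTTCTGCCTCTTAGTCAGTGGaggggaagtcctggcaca

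Ms4a6b and Ms4a6c shared a longer identical run of 48 bases, 118 bases before the first start and 49 before the second, although the windows as a whole matched at only 45.8% of aligned columns. The Ms4a6b start used by RefSeq lies 2047 bases inside the deposited gene, so its window lies within that gene. For Ms4a6c the RefSeq start lies 2 bases inside. The other 13 pairs matched at 42.2% to 50.0%, with longest runs of 7 to 9 bases. Ms4a4a is shown as the one window with a match to a motif searched, and Ms4a7 as the gene with the largest response to CDDO-Me. The motifs, searched on both strands, were GAGGAAGT (the ETS type bound by PU.1), an interferon response motif, TGACNNNGC (antioxidant response, bound by NRF2) and TTGCNNAA (C/EBP). The match in Ms4a4a, in capitals, was TGACNNNGC on the opposite strand, 77 to 69 bases before the start, and 10.1% of all 27025 promoters hold that motif. The ETS letters occur in 2.42%, the interferon letters in 3.05% and the C/EBP letters in 9.55% of promoters, and in none of the 6 windows here. No match says only that these letters are not in this window.
Ms4a4a, chr19:11375238-11375487 (+ strand): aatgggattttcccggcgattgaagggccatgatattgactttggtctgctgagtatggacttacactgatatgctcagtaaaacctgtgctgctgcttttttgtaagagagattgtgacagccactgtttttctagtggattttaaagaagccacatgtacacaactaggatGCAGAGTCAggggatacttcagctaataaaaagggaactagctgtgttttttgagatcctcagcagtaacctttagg
Ms4a7, chr19:11336147-11336396 (- strand): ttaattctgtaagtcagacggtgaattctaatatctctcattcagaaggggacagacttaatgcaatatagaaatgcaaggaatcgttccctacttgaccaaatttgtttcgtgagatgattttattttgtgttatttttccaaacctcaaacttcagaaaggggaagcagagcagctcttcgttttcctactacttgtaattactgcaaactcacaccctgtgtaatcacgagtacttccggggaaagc

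Reads per library ranged from 28161057 to 33852338, and 16456 genes had enough reads to be tested. The first principal component of log2 CPM (reads scaled to a common library size, with TMM factors) held 65.6% of the variance. Control 3 stood apart on the third component (77.7, against -26.6 to 15.3 in the other 11 libraries). The results are also given without it and CDDO-Me 4, which lay within that range (15.3). CDDO-Me 4 held the highest CDDO-Me value of Ms4a4a, Ms4a4b, Ms4a6b, Ms4a6d and Ms4a7, so leaving it out lowers that group. All 7 genes passed the filter on low counts, which asks for about 10 reads in 4 libraries. Most passed it through the NASH groups: summed over the 4 control libraries, each gene had between 2 reads (Ms4a4a) and 90 reads (Ms4a6c), and Ms4a6c alone had more than 10 in each of them. Nearly all reads of 6 of the genes were unique to 1 gene (96.9% or more in each). For Ms4a6c only 43.57% were, and 47.7% of the 75-base windows of its transcripts also occur in BE692007, a gene on the opposite strand that overlaps it. Without knowledge of the strand, reads of these overlapping genes cannot be told apart, so Ms4a6c is also given by its unique reads.

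NASH vehicle against control livers shows how the family's RNA stood in the diet model. All 7 genes were higher in NASH vehicle livers, by 8.11-fold (Ms4a4b) to 86.8-fold (Ms4a7) in the fit, at an adjusted p of 0.0035 or less. The same direction was called for 29.6% of all genes tested. In all 7 the 4 NASH vehicle libraries lay above the 4 control libraries, as they did in 27.0% of genes tested. The 7 were chosen with earlier results of these data known, so these shares give no test of the family. The median log2 fold change of the 7 was 4.34, beside -0.01 over all genes tested and 3.29 over 12 core macrophage genes.

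Ms4a7, known as a marker of some tissue macrophages, among them those at the borders of the brain, held 0.230, 0.0922, 0.222 and 0.268 CPM in control livers 1 to 4. In NASH vehicle livers 1 to 4 it held 11.8, 18.1, 19.2 and 23.5 CPM. Library 1 was the lowest of the NASH vehicle group, and no library of that group came near the control range. The log2 fold change was 6.44 ± 0.35 (SE), with an adjusted p of 2e-08. Ms4a7 rested on 2726 reads in the NASH vehicle group and 20 in the control group, a ratio of 89.2 after scaling to library size, with a 95% counting interval of 57.6 to 146.3.

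Ms4a4a, whose product is known to associate with the fungal receptor dectin-1 in macrophages, had 2 control reads in all, both in library 2, and none in the other 3. NASH vehicle livers 1 to 4 held 1.91, 2.22, 2.13 and 2.23 CPM, the narrowest spread of any member in that group (a highest to lowest ratio of 1.17). After scaling to library size its reads were 103.4 times those of control livers, but 2 control reads leave a 95% counting interval of 28.4 to 857.5. Its fitted log2 fold change of 6.42 ± 0.68 (SE) rose to 9.09 when control 2 was left out, so the size of the fold is not fixed by these libraries.

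Ms4a6d, which is known to join the receptor Vsig4 in a complex that restrains Nlrp3, held 1.31, 0.277, 0.555 and 0.268 CPM in control livers and 9.68, 14.5, 17.1 and 18.2 CPM in NASH vehicle livers. Control 1 was the highest control library. The log2 fold change was 4.59 ± 0.43 (SE, adjusted p = 2.1e-06), and 5.29 without control 1.

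Ms4a6c, a gene used to mark monocytes and their progeny, went from 0.914 ± 0.206 CPM (SD, n = 4) to 17.4 ± 3.31. The log2 fold change was 4.24 ± 0.28 (SE, adjusted p = 8.4e-08). By unique reads alone the groups held 46 and 1146 reads, and the overlapping BE692007 held 12 and 403 total reads. Ms4a6b rose from 0.351 ± 0.177 to 7.16 ± 1.37 CPM (SD, n = 4), a log2 fold change of 4.34 ± 0.33 (SE, adjusted p = 2.4e-07).

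The smallest rises were in Ms4a4c and Ms4a4b. Ms4a4c, known as an interferon-responsive gene of myeloid cells, went from 0.273 ± 0.127 to 2.87 ± 0.595 CPM (SD, n = 4; log2 fold change 3.39 ± 0.37, SE, adjusted p = 4.6e-06). Ms4a4b held 0, 0.461, 0.555 and 0 CPM in control livers and 1.04, 2.39, 2.60 and 2.36 CPM in the NASH vehicle group. Its log2 fold change was 3.02 ± 0.75 (SE, adjusted p = 0.0035), and 3.81 without control 3. RNA of T and NK cells moved with it: the summed TPM (the authors' length-scaled expression unit) of 16 markers ranged from 2.59 to 5.62 in control livers and from 17.9 to 48.6 in NASH vehicle livers, 14 of the 16 rose, and Cd3e rose by 2.17. Of all genes tested, 29.6% rose. TPM carry no TMM factors, and on log2(TPM + 1) the median of all genes stood at 0.507 in NASH vehicle against control livers. Summed TPM therefore overstate the difference between these groups. The part of T and NK cells in the Ms4a4b result was not tested.

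**Figure D1:**
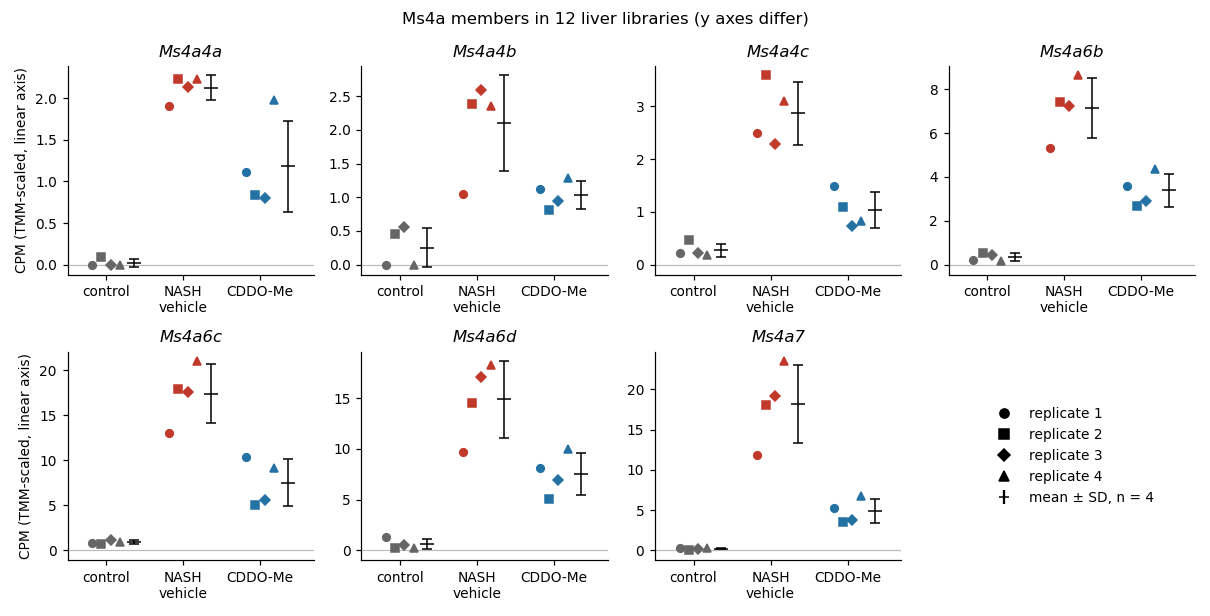
CPM (vertical axis, linear, with its own range in each panel) of the 7 Ms4a genes in the 4 libraries of each group. Marker shapes are replicate numbers, which are not said to link animals between groups, and bars are mean ± SD. Control libraries sit near 0 in every panel, and for Ms4a4c, Ms4a6b, Ms4a6c and Ms4a7 every CDDO-Me library lies below every NASH vehicle library.

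CDDO-Me against NASH vehicle livers shows how the same RNAs stood after 8 weeks of the compound on the diet. Ms4a7, Ms4a4c, Ms4a6c and Ms4a6b were lower with CDDO-Me, by 3.73-, 2.76-, 2.31- and 2.11-fold. Ms4a6d, Ms4a4b and Ms4a4a did not pass the test. The 4 of 7 genes called lower stand beside 7.24% of all genes tested, and 4 of 7 with no overlap of the groups beside 10.2%. The median log2 fold change of the 7 was -1.08, beside -0.01 over all genes tested and -1.16 over the 12 core macrophage genes, of which 9 were lower.

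Ms4a7 had the largest difference of the 7. CDDO-Me livers 1 to 4 held 5.29, 3.51, 3.83 and 6.79 CPM, all below the lowest NASH vehicle library (11.8 CPM). Libraries 1 and 4 were the higher pair. The log2 fold change was -1.90 ± 0.25 (SE, adjusted p = 0.00023), past that of the Fc receptor Fcgr1 (-1.82) and of Adgre1 (-1.63), the core macrophage genes nearest to it.

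Ms4a4c held 1.49, 1.09, 0.729 and 0.831 CPM in CDDO-Me livers, against 2.28 to 3.60 in NASH vehicle livers. Here libraries 1 and 2 were the higher pair. The log2 fold change was -1.46 ± 0.32 (SE, adjusted p = 0.0074). Interferon-induced RNAs, a group known to include Ms4a4c in myeloid cells, moved in the same direction: 9 of 10 type I interferon genes were lower, with a median of -1.07. Of all genes tested 7.24% were called lower, and the core macrophage median was -1.16.

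Ms4a6c held 10.3, 5.02, 5.61 and 9.17 CPM with CDDO-Me, against 13.1 to 21.1 in NASH vehicle livers, and again libraries 1 and 4 were high. Its log2 fold change was -1.21 ± 0.23 (SE, adjusted p = 0.0035). Ms4a6b held 3.59, 2.67, 2.92 and 4.36 CPM, against 5.33 to 8.64. Its log2 fold change of -1.08 ± 0.26 (SE, adjusted p = 0.014) missed the threshold when NASH vehicle 4, CDDO-Me 2 or CDDO-Me 3 was left out (adjusted p = 0.0591, 0.0514 and 0.0523).

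The 3 genes that missed the threshold all had a mean below that of NASH vehicle livers. Ms4a6d held 8.08, 5.05, 6.96 and 10.0 CPM, and its highest value lies above the lowest NASH vehicle library (9.68 CPM). Its log2 fold change was -0.98 ± 0.34 (SE, adjusted p = 0.069). It passed in 7 of 24 alternative settings, among them DESeq2 (adjusted p = 0.0149) and the fit without NASH vehicle 1 (0.0411). Ms4a4a held 1.12, 0.842, 0.802 and 1.98 CPM (log2 fold change -0.83 ± 0.42, SE, adjusted p = 0.2), and CDDO-Me 4 alone reached the NASH vehicle range of 1.91 to 2.23 CPM. Without control 3 and CDDO-Me 4 together, Ms4a4a was lower by a log2 fold change of -1.20 (adjusted p = 0.0296). Ms4a4b held 1.12, 0.807, 0.948 and 1.29 CPM (log2 fold change -1.01 ± 0.65, SE, adjusted p = 0.32), which overlaps NASH vehicle 1 (1.04 CPM) and no other library of that group. Cd3e, of the T cell receptor complex, did not pass either (-0.89, adjusted p = 0.25). Of the 16 T and NK cell genes 4 were lower, beside 7.24% of all genes tested. Ms4a4a and Ms4a4b each passed in 3 of 24 alternative settings. These misses do not show that the RNAs were unaffected.

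CDDO-Me livers lay above control livers for all 7 genes. All 7 were called higher (26.2% of genes tested were) and did not overlap with control livers (22.6% of genes tested). The log2 fold changes ± SE were 5.59 ± 0.69 for Ms4a4a, 4.54 ± 0.35 for Ms4a7, 3.61 ± 0.42 for Ms4a6d and 3.26 ± 0.32 for Ms4a6b. They were 3.03 ± 0.27 for Ms4a6c, 2.01 ± 0.75 for Ms4a4b and 1.93 ± 0.37 for Ms4a4c. Ms4a4a again rested on 2 control reads, with a scaled ratio of 59.4 (95% counting interval 16.2 to 494.6), and without control 2 its fitted value was 8.26. The call for Ms4a4b (adjusted p = 0.039) was lost in 12 of 24 alternative settings, 9 of them the removal of a single library: control 1 or 4, NASH vehicle 2, 3 or 4, or any of the 4 CDDO-Me libraries (adjusted p = 0.0511 to 0.0833). This comparison and the other 2 share libraries, so their values are not independent.

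**Figure D2:**
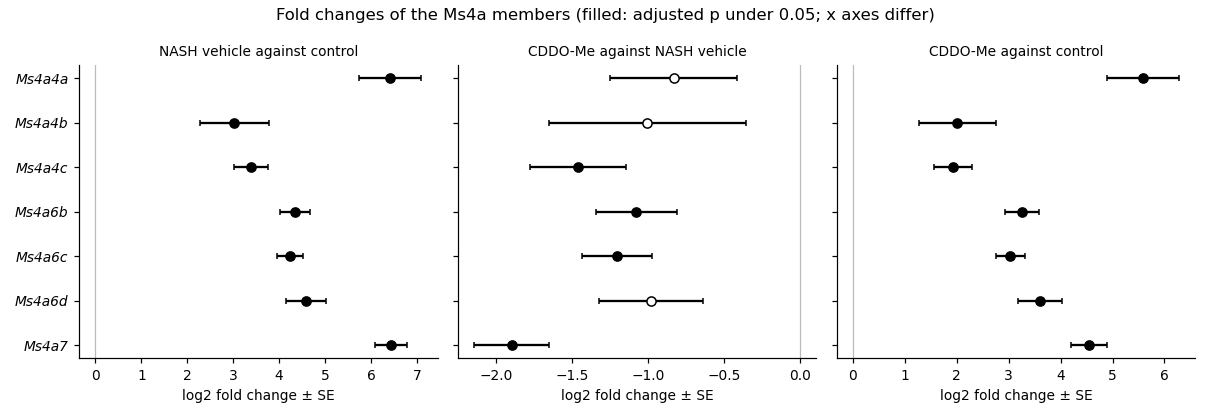
Log2 fold change ± SE (horizontal axis) of each Ms4a gene in the 3 comparisons, from the edgeR fit over all 12 libraries; filled points have an adjusted p under 0.05. All points are filled and above 0 in both comparisons with control, and 4 of 7 are filled below 0 for CDDO-Me against NASH vehicle.

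Because core macrophage RNA moved with the family, each gene was also measured against the mean log2 CPM of 12 core macrophage genes in the same library (among them Adgre1, Csf1r, Mpeg1, Cd68, Lyz2, C1qa, C1qb, C1qc, Fcgr1, Mertk and Aif1). That mean rose by 3.22 from control to NASH vehicle livers and changed by -1.02 from NASH vehicle to CDDO-Me livers, on the log2 scale. The summed TPM of the 12 ranged from 133.4 to 256.2 in control, 2720 to 5982 in NASH vehicle and 1279 to 3001 in CDDO-Me livers. Unlike the mean log2 CPM, these sums carry no TMM factors. Against the mean log2 CPM, Ms4a7, Ms4a4a, Ms4a6d, Ms4a6b and Ms4a6c were still higher in NASH vehicle than in control livers. The same was called for 1.62% of genes tested. Over all genes tested the median of these relative values was -3.21, because the subtracted mean rose. Medians were 2.11 for lipid-associated macrophage, 0.26 for monocyte and -2.53 for Kupffer cell genes. Trem2 stood at 4.04, Clec7a at 3.13, Ccr2 at 1.29 and Csf1r at -0.28, so values above the mean are not particular to Ms4a genes. Log2 CPM with a prior count of 2 understates folds of genes near 0 in control livers.

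Ms4a7 exceeded the core macrophage mean by the most, 2.88 ± 0.29 (SE, adjusted p = 1.2e-10, limma). Ms4a4a followed at 1.54 ± 0.43, Ms4a6d at 1.48 ± 0.31, Ms4a6b at 0.98 ± 0.30 and Ms4a6c at 0.94 ± 0.24. Ms4a4b (0.20 ± 0.57) and Ms4a4c (-0.06 ± 0.37) did not pass. For CDDO-Me against control, 2.97% of genes tested were called higher, and the median relative value of all genes tested was -2.15. The same 5 genes passed: Ms4a7 at 2.01, Ms4a4a at 1.67, Ms4a6d at 1.53, Ms4a6b at 0.93 and Ms4a6c at 0.72. The last of these did not pass by unique reads (0.34, adjusted p = 0.256).

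With CDDO-Me, Ms4a7 was the one member that was lower than NASH vehicle livers beyond the core macrophage mean. Relative to that mean it stood at -2.73, -2.63, -2.44 and -2.42 in NASH vehicle livers 1 to 4 and at -3.36, -3.65, -3.62 and -3.08 in CDDO-Me livers 1 to 4, log2 scale. The groups do not overlap. The difference was -0.87 ± 0.29 (SE, adjusted p = 0.0078, limma), a call made for 0.371% of genes tested. Over all genes tested the median relative value was 1.01, because the subtracted mean fell. The Ms4a7 difference kept its direction and its call in all 17 alternative settings, at -0.998 to -0.798 with adjusted p of 0.00248 to 0.0283. The other 6 genes differed from the mean by -0.42 ± 0.37 (Ms4a4c) to 0.13 ± 0.43 (Ms4a4a) and none passed. Adgre1 (F4/80), itself part of the mean, was also below it (-0.59 ± 0.18, adjusted p = 0.0048), while Csf1r, the receptor of the macrophage growth factor CSF1, was not (0.08 ± 0.19).

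**Figure D3:**
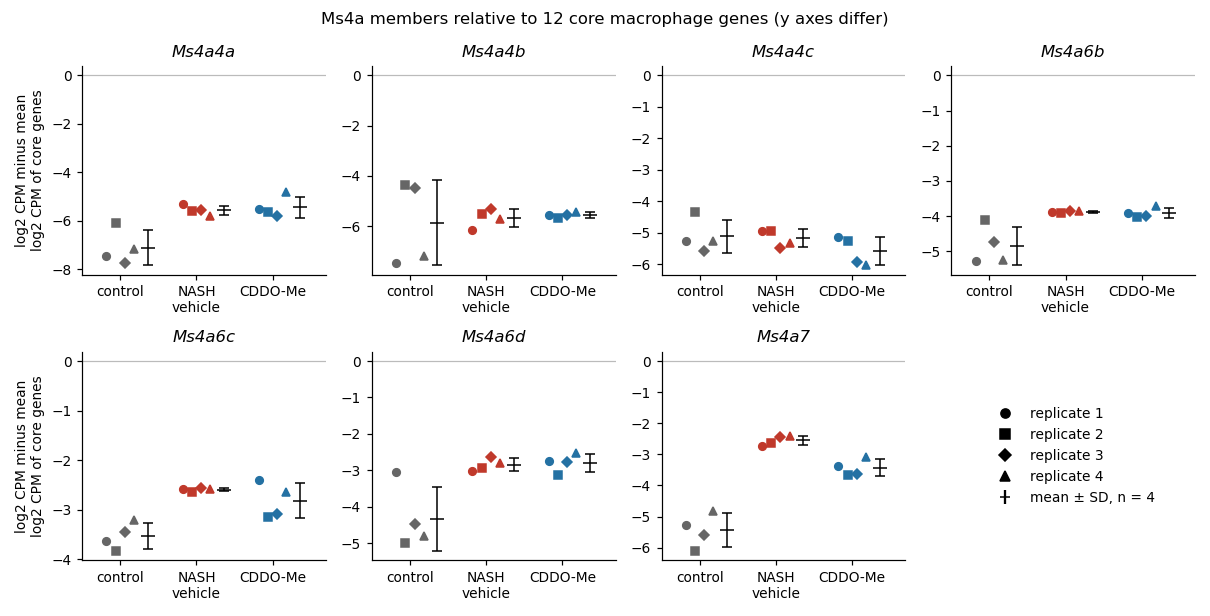
Log2 CPM of each Ms4a gene minus the mean log2 CPM of 12 core macrophage genes in the same library (vertical axis, own range in each panel), with mean ± SD of 4 libraries. Ms4a7 shows 3 separate groups, and in Ms4a6b and Ms4a6d the CDDO-Me libraries lie around the NASH vehicle libraries.

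Levels between genes are compared by TPM, which accounts for gene length. In NASH vehicle livers Ms4a6d (25 ± 7.73 TPM, SD, n = 4) and Ms4a6c (24.8 ± 5.62) were the most abundant and overlapped each other. Ms4a7 (12.2 ± 4.02) came next, and its range of 6.89 to 15.9 TPM lay below that of Ms4a6c (17.1 to 30.2) and met those of Ms4a6d (14.8 to 31.3) and Ms4a4a (4.10 to 7.59). Ms4a4a (6.29 ± 1.58), Ms4a4c (4.65 ± 0.942) and Ms4a6b (4.55 ± 1.17) had overlapping ranges, and Ms4a4b (1.04 ± 0.432) was last. Within every NASH vehicle library, however, Ms4a7 stood below Ms4a6d and above Ms4a4a, and Ms4a4a stood above Ms4a4c and Ms4a6b. In CDDO-Me livers the order was Ms4a6d (10.9 ± 4.26), Ms4a6c (9.17 ± 4.13), Ms4a4a (2.95 ± 1.77), Ms4a7 (2.76 ± 1.18), Ms4a6b (1.82 ± 0.639), Ms4a4c (1.35 ± 0.490) and Ms4a4b (0.334 ± 0.127). Each gene's range overlapped that of its neighbour in that order, except for the step from Ms4a6c to Ms4a4a and the last step to Ms4a4b. Within every CDDO-Me library, however, Ms4a7 stood above Ms4a6b. In control livers no gene exceeded 1.18 TPM in any library. The TPM of Ms4a6c carry its shared reads.

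As shares of the summed TPM of the 7 genes, Ms4a7 made up 13.8%, 14.6%, 16.1% and 16.9% in NASH vehicle livers 1 to 4. In CDDO-Me livers it made up 8.77%, 9.49%, 9.52% and 9.97%, below every NASH vehicle library. Ms4a6d went the other way, from 31.5% ± 2.36 (SD, n = 4) to 37.5% ± 2.91, with ranges that do not overlap (29.4% to 34.3%, and 34.9% to 41.6%). Ms4a6c (31.9% ± 1.82 and 30.9% ± 2.90) and Ms4a6b (5.79% ± 0.0714 and 6.36% ± 0.609) had overlapping ranges. The shares are descriptions with no test, and in control livers they rest on few reads. The summed TPM of the 7 ranged from 1.29 to 2.21 in control, 49.9 to 94.1 in NASH vehicle and 18.9 to 42.7 in CDDO-Me livers. These sums carry no TMM factors. On log2(TPM + 1) the median of all genes was 0.507 for NASH vehicle against control and -0.158 for CDDO-Me against NASH vehicle. In the main fits both medians were -0.01, so the sums overstate differences between groups.

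**Figure D4:**
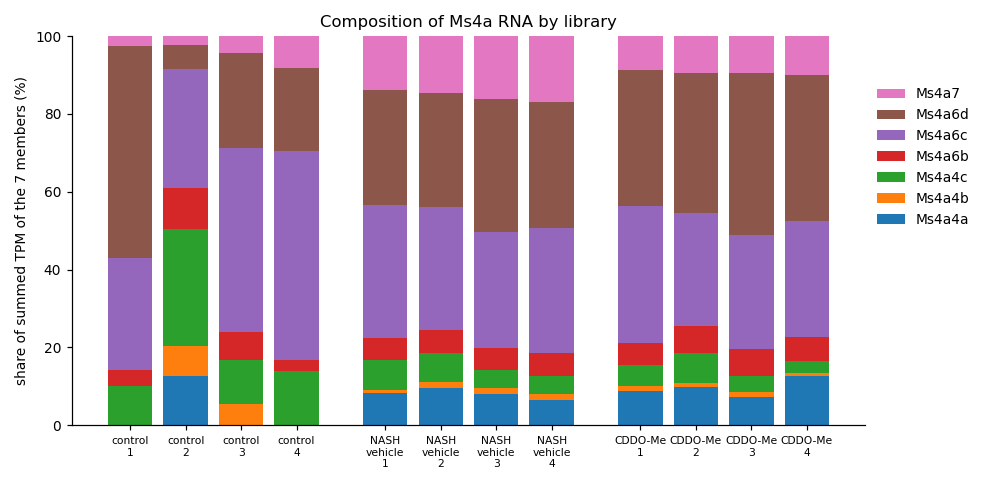
Share of the summed TPM of the 7 Ms4a genes (vertical axis, percent) held by each gene, 1 bar per library, by group and replicate. The Ms4a7 segment is 13.8% to 16.9% of each NASH vehicle bar and 8.77% to 9.97% of each CDDO-Me bar; control bars rest on 0 to 34 reads per gene and library.

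Correlations within groups differed between pairs of members. After subtraction of group means, log2 CPM over the 12 libraries correlated at 0.91 between Ms4a4b and Ms4a6b, at 0.82 between Ms4a7 and Ms4a6c and at 0.58 between Ms4a7 and Ms4a6d. Ms4a7 and Ms4a4c stood at -0.33, and Ms4a7 and Ms4a6b at 0.01. The neighbours Ms4a4b and Ms4a4c stood at 0.42, and Ms4a6b and Ms4a6c at 0.38. The low values of Ms4a7 rest largely on control livers: in control 2 Ms4a7 deviated by -0.72 (2 reads), Ms4a4c by 0.71 and Ms4a6b by 0.67. In NASH vehicle livers 1 to 4 Ms4a7 deviated by -0.58, 0.04, 0.13 and 0.42, and Ms4a6b by -0.40, 0.07, 0.04 and 0.29. In CDDO-Me livers Ms4a7 deviated by 0.17, -0.41, -0.29 and 0.53, and Ms4a6b by 0.11, -0.31, -0.18 and 0.38. Ms4a7 and Ms4a6b thus varied together in both NASH groups. The correlations are descriptions of 12 libraries that share depth and cell makeup, and several control values rest on a few reads.

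The genes whose log2 CPM most resembled each member over the 12 libraries were found by Pearson correlation, which here follows the differences between groups. For Ms4a7 they were Themis2 (r = 0.998), Axl (0.997), Gpr137b (0.996) and Irf8 (0.996), with 0.91, 0.85, 0.92 and 0.85 after subtraction of group means. Axl, a receptor for the engulfment of dying cells, and Irf8, a transcription factor of monocytes and macrophages, were also among the 4 of Ms4a6c, with Sirpa and Ccdc80 (r = 0.995 to 0.996). Ms4a6d was most like Apbb1ip, Cd200r1, Nckap5l and Ptprc (the pan-leukocyte protein CD45), at 0.991 to 0.995. Ms4a6b was most like Map3k14, Bcl2a1b, Csf3r and Adam8 (0.992 to 0.997).

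Ms4a4a was most like Btk, a kinase of B and myeloid cells, with r = 0.995 (0.87 after subtraction of group means), then Rgs1, Tm6sf1 and Nfkbid. Ms4a4b was most like Gpr183 (r = 0.975, and 0.93 after subtraction), Zfp82, Lysmd2 and Cytip, a regulator of lymphocyte adhesion. Ms4a4c was most like Il17ra, Oas1a, Slfn5 and Lst1 (0.976 to 0.981), with 0.59 to 0.68 after subtraction. Oas1a and Slfn5 are known interferon-induced genes.

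The other rows of the family did not all follow the 7. Of 14 further Ms4a genes and the related Tmem176a and Tmem176b, 6 had enough reads to be tested. In NASH vehicle livers 4 of these rose, beside 29.6% of all genes tested. Ms4a4d, which lies between Ms4a6b and Ms4a6d, went from 4.44 ± 0.896 to 11.2 ± 1.69 CPM (SD, n = 4; log2 fold change 1.34 ± 0.20, SE, adjusted p = 7.4e-05). With CDDO-Me it stood at 6.99 ± 1.73 CPM and was lower than in NASH vehicle livers (-0.68 ± 0.20, adjusted p = 0.03). It was the one tested row of the cluster beyond the 7 that passed in that comparison.

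Ms4a14, the neighbour of Ms4a7, had 2 reads in control livers and 1.07, 1.13, 3.07 and 2.07 CPM in the NASH vehicle group (log2 fold change 6.24 ± 1.07, SE, adjusted p = 0.00023). After scaling its reads were 91.6 times those of control livers, with a 95% counting interval of 25.1 to 760.2. Only 5.54% of its reads crossed a splice junction, against 61.3% for Ms4a7. With CDDO-Me it held 0.930, 0.0701, 0.0729 and 0.630 CPM (-2.06 ± 0.71, adjusted p = 0.064). Relative to the core macrophage mean Ms4a14, like Ms4a7, was called lower with CDDO-Me (-1.34 ± 0.56, SE, adjusted p = 0.033, limma). Libraries 1 and 4 were again the high pair.

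Ms4a1 (CD20) did not pass in NASH vehicle livers (0.84, adjusted p = 0.12) or between CDDO-Me and NASH vehicle livers (0.99, adjusted p = 0.12), and was higher in CDDO-Me than in control livers (1.83 ± 0.44, SE, adjusted p = 0.0038). Only 18.9% of its 212 reads were unique to it. Ms4a2 had no read in any library, and a count of 0 allows up to 3 reads in a library by counting error alone. Ms4a8a passed in no comparison, and 50 of its 70 control reads came from control 3.

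Tmem176a and Tmem176b, a pair of related proteins encoded on chromosome 6, overlap on opposite strands and rose by 1.23 ± 0.11 and 1.40 ± 0.12 (SE) in NASH vehicle livers. With CDDO-Me they did not pass (-0.25 for each, adjusted p = 0.13 and 0.17). Both are far more abundant than the 7, at 309.5 and 877.0 TPM in NASH vehicle livers.

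Genes known to work with Ms4a proteins mostly moved in the same directions. All 11 partner and signalling genes were higher in NASH vehicle than in control livers (median log2 fold change 3.08), and 7 of 11 were lower with CDDO-Me (median -0.93). These calls were made for 29.6% and 7.24% of all genes tested, and the core macrophage medians were 3.29 and -1.16. Relative to the core macrophage mean, the medians of the 11 were -0.27 and 0.10. Clec7a (dectin-1), known to associate with Ms4a4a, rose by 6.33 and was lower with CDDO-Me (-1.05, adjusted p = 0.018). Of its signalling chain, Syk (-0.84) and Card9 (-0.85) were lower, and Malt1 (-0.04) and Bcl10 (-0.15) did not pass.

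Trem2, a lipid receptor whose soluble form is tied by human genetics to the MS4A locus, rose by 7.35 ± 0.36 (SE) and was lower with CDDO-Me (-1.17 ± 0.24, adjusted p = 0.0071). Its adaptor Tyrobp did likewise (4.32 and -1.11, adjusted p = 0.0035). Vsig4, the partner of Ms4a6d, is a Kupffer cell gene and rose by only 1.11, and did not pass with CDDO-Me (-0.54, adjusted p = 0.16). Nlrp3 (-0.93) and Il1b (-1.01), an inflammasome sensor and the cytokine it releases, were lower with CDDO-Me (adjusted p = 0.021 for both). Tnfrsf18 (GITR), the T cell receptor that Ms4a4b is known to join, rose by 1.47 and did not pass with CDDO-Me (-0.97, adjusted p = 0.14).

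Marker lists place these differences beside other cells of the liver. Of all 16456 genes tested, 4874 rose and 4945 fell in NASH vehicle livers, and 1545 were higher and 1191 lower with CDDO-Me. Of 10 monocyte genes, 9 rose in NASH vehicle livers and 2 were lower with CDDO-Me. Ccr2 rose by 4.48 and did not pass with CDDO-Me (-0.44, adjusted p = 0.35), while Ly6c2 was lower (-0.90, adjusted p = 0.049). Of 8 lipid-associated macrophage genes, all rose and 3 were lower with CDDO-Me, Gpnmb by -1.40 (adjusted p = 0.0034). Of 10 Kupffer cell genes, 4 rose and 3 fell in NASH vehicle livers and none passed with CDDO-Me. Clec4f, a Kupffer cell lectin, did not pass in either comparison. Of 5 tested neutrophil genes, all rose and 1 was lower with CDDO-Me, and of 8 dendritic cell genes 7 rose and none passed with CDDO-Me. Of 8 B cell genes, 1 rose in NASH vehicle livers, and with CDDO-Me 2 were higher and 1 was lower. Cd79a did not pass in either comparison. Of 8 mast cell and basophil genes, 2 were tested, of which 1 fell in NASH vehicle livers and 1 was higher with CDDO-Me. Of 8 hepatocyte genes, all fell in NASH vehicle livers, Alb by -1.11, and 1 was higher with CDDO-Me. The part of each cell type in the Ms4a results was not tested.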

How the data were processed

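Each library is 1 deposited table of 41325 genes. The authors' counts are whole reads per gene (total, unique, exon, junction and intron). The authors' TPM sum to 1000000 per library. The deposited RPKM and fractions of unique and of intron reads, named per the file headers, were not used in tests. Reads were 75 bp, paired, from poly(A) RNA, per the labels' protocols. The build is GRCm38, per the submitters' processing notes. The aligner, counter, strand setting and whether a pair counts as 1 or 2 reads were not stated in the sources used here (66.4% of unique counts from 1 to 10 are even).

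Total gene reads of all genes passing filterByExpr (minimum 10, total 15) were tested with edgeR 4.0.16 (R 4.3.3; TMM, quasi-likelihood, two-sided, Benjamini-Hochberg over 16456 genes, threshold 0.05), with 12 libraries and 1 mean per group. Each SE was derived from the fold change and its F statistic, as the size of the former over the root of the latter. Values relative to 12 core macrophage genes were tested with limma 3.58.1 (trend; log2 CPM, prior count 2). On simulated counts of 16456 genes for NASH vehicle against control, 74% of 100 genes changed 2-fold and 89% of 100 changed 4-fold were recovered, with 4 false calls among 167. Only these genes were changed there, while in the data 4874 genes rose and 4945 fell. The simulated rates therefore check the fit and do not describe the reported comparison. Alternatives included DESeq2 1.42.0, voom, log2(TPM + 1) and unique reads. Promoters were aligned with Biopython 1.88. Counting intervals are exact binomial and cover counting error only. PCR reads without molecular identifiers are not independent molecules, and if a pair counts as 2 reads the intervals are too narrow. Genes were named by rule: all members, family rows, fixed lists and the 4 most correlated genes of each member. The members and lists were chosen with earlier results of these data known. The values of 1 gene of the core macrophage list are not reported here.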

Additional observations from a re-analysis of the deposited data

Results flagged for a closer look

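Among 21 sets of 4 libraries (7 genes in 3 groups), 2 held a library set apart from the other 3. For normally distributed values chance alone sets 1 apart in about 1 of 20 such sets. That rate does not hold for counts near 0: where 3 libraries have no read, any count in the other is set apart. Ms4a4a in control 2 stood at 0.0922 CPM while the other 3 control libraries had no read, and this value is 2 reads. Ms4a4b in NASH vehicle 1 stood at 1.04 CPM, against 2.36 to 2.60 CPM in the other 3 libraries of the group.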

How the results depend on the processing

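The number of genes called was 7 for NASH vehicle against control in all 24 alternatives, and 6 or 7 of 7 for CDDO-Me against control. For CDDO-Me against NASH vehicle, 4 were called in the reported fit, 3 to 5 when a library was left out, 5 with DESeq2, 6 with voom or with only the 8 libraries compared, 6 without control 3 and CDDO-Me 4, and 7 on log2(TPM + 1); the cause was not tested. Relative to core macrophage genes the counts were 5, 1 and 5, and 4 in the last with unique reads. Of 861 member values under alternatives, 832 stayed on their side of the threshold, 16 lost the call and 13 gained it. No called value changed sign, but 17 of the 832 did, all values relative to core macrophage genes that passed in neither setting (Ms4a4a, Ms4a4b, Ms4a4c and Ms4a6d). Without TMM the median of all genes moved from -0.01 to 0.62 in NASH vehicle against control and the share of calls that were higher from 49.6% to 88.2% (92.6% on log2(TPM + 1)); Ms4a7 stood at 7.07. In CDDO-Me against NASH vehicle that share went from 56.5% to 36.7% (23% on log2(TPM + 1)), and in CDDO-Me against control from 52.7% to 88.6% (91.6%). With a replicate block 7, 4 and 7 genes were called, and 5, 1 and 5 relative to core macrophage genes. The labels do not say whether replicate numbers link animals. Deviations of libraries with the same number correlated at -0.223 to 0.187, above 0.1 in 2 of 12 cases, which cannot exclude a shared cage or litter. The 4 control libraries together hold 2 to 90 reads per gene, which limits every fold against them.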
